A study of Mus musculus with 28 samples.

Results

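The mitochondrial carrier family, whose genes carry the symbol Slc25a followed by a number, was followed in mouse CD4+ T cells through activation by anti-CD3. A gene was a member if the array's annotation gave it a single symbol of that form, with Slc25a37 left out. This found 39 of the 17097 genes measured, read by 70 probe sets, and each gene is reported through its brightest probe set over the 26 biological arrays. The cells were splenic total CD4+ T cells of 12-week-old female mice, kept in complete RPMI. They were either not stimulated or exposed to plate-bound anti-CD3, which engages the T cell receptor complex, at 0.1 µg/ml for 4 h or 24 h. The strains were C57BL/6, B6.Sle1b (a C57BL/6 background with the lupus susceptibility interval Sle1b) and Sle1b.BACSlamf6-H1, which by its name adds Slamf6-H1 on a bacterial artificial chromosome and is called Sle1b.BAC below. Of the 9 strain-by-time groups 8 held 3 arrays, and C57BL/6 at 24 h held 2 biological arrays and 2 more titled technical, which entered no comparison. Nothing in the labels states that replicates were separate animals, and the spread behind every p-value may therefore be partly technical.

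The proteins of the family fold into a compact helical bundle in a membrane, nearly always the inner mitochondrial membrane, and exchange a metabolite on one side for one on the other. Between them they move adenine and pyrimidine nucleotides, coenzymes, phosphate, di- and tricarboxylates, amino acids, acylcarnitines, iron and glutathione. They are made in the cytosol and enter the inner membrane through the TIM22 pathway. In T cells, leaving the resting state is accompanied by growth of the mitochondria and by a shift toward nucleotide, one-carbon and lipid synthesis, processes that draw on substrates crossing the inner membrane.

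Values are log2 of RMA intensity, in which a difference of 1 is a doubling. The level of one probe set was not compared with that of another, since probes differ in brightness for reasons other than RNA amount. Of the 39 carriers, 34 lay above array background in all 9 groups. Slc25a2 (an ornithine carrier), Slc25a18 (a glutamate carrier) and Slc25a48 lay at background in every group. Slc25a34 did so in 1 group and Slc25a35 in 5. The genes Slc25a11, Slc25a21, Slc25a31, Slc25a41, Slc25a43 and Slc25a54 were not analysed here. The 5 measured markers of CD4 T cells were all above background at every time, with a summed intensity of 5910 to 6958 on unstimulated arrays, 4811 to 5550 at 4 h and 3765 to 4889 at 24 h. The 5 measured monocyte and macrophage markers of 6 listed, all above background, summed to 54.0 to 87.1 unstimulated (median 67.0), 55.3 to 89.4 at 4 h (60.8) and 57.3 to 172 at 24 h (122). The 6 measured B cell markers of 7 listed, of which Pax5 lay at background at every time, summed to 279 to 638 (median 418), 211 to 599 (350) and 228 to 491 (290). All 7 listed neutrophil markers were measured and lay above background at every time. Their sum varied widely between arrays, at 93.7 to 1123 unstimulated (median 269), 74.3 to 941 at 4 h (229) and 71.6 to 688 at 24 h (255). The part of these cells in the differences described here was not tested. The 75th percentile of an array, a measure of its brightness, ranged from 34.2 to 53.3 over all arrays. The 3 dimmest arrays outside 24 h were Sle1b.BAC at 4 h replicate 2 (34.2), unstimulated C57BL/6 replicate 2 (34.8) and unstimulated B6.Sle1b replicate 3 (35.6), and the next had 39.2. Unstimulated C57BL/6 replicate 2 gave the lowest unstimulated value of 9 carriers, unstimulated B6.Sle1b replicate 3 that of 14, and the Sle1b.BAC array the lowest 4 h value of 19. Counts are therefore also given without these 3 arrays, an alternative chosen after seeing the data.

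Promoter sequences are shown for the carriers whose 250 bases before the RefSeq transcription start (build GRCm38.p6) held the E-box CACGTG, because they include the pair with the largest opposite responses. The motif is its own reverse complement, so both strands were searched at once. It occurred in 6 of the 31 carriers with a promoter entry (19.4%) and in 1854 of 27025 genes in the same table (6.86%). The 6 were Slc25a1, Slc25a13, Slc25a14, Slc25a15, Slc25a33 and Slc25a36, and whether any factor bound there was not measured. The full 250 bases are given first for the pyrimidine nucleotide carriers Slc25a33 (chr4:149774268-149774517, minus strand) and Slc25a36 (chr9:97111042-97111291, minus strand), 5′ to 3′ and ending at the base before the start, with the motif in capitals. It lies 8 to 3 bases before the start of Slc25a33 and 187 to 182 bases before that of Slc25a36.
Slc25a33: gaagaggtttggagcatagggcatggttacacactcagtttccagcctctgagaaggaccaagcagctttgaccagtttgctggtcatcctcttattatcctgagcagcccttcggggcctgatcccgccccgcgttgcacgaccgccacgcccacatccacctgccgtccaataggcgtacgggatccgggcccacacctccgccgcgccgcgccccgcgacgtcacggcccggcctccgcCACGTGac
Slc25a36: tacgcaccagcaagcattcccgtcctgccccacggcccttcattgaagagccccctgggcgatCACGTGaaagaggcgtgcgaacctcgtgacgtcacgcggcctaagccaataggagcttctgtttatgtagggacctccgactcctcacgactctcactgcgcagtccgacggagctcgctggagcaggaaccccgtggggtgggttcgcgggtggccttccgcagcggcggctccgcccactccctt
Shorter windows around the motif follow for the ornithine carrier Slc25a15 (chr8:22398324-22398379, minus strand), the aspartate-glutamate carrier Slc25a13 (chr6:6217268-6217323, minus strand), the citrate carrier Slc25a1 (chr16:17928428-17928469, minus strand) and the uncoupling-protein-like Slc25a14 (chrX:48623369-48623424, plus strand), where it lies 77 to 72, 125 to 120, 239 to 234 and 54 to 49 bases before the start. Slc25a14 has another RefSeq start, and the same motif lies 184 to 179 bases before that one.
Slc25a15: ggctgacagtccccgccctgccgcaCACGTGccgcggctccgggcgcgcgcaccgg
Slc25a13: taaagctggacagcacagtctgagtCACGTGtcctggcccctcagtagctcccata
Slc25a1: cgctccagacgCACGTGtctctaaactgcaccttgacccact
Slc25a14: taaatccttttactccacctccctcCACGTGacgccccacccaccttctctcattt
Of these genes, Slc25a36 was called lower after 24 h of anti-CD3 and the other 5 higher. Among all 39 carriers 17 were called higher and 9 lower, and among all genes 22.9% and 17.4%. The 24 h call of Slc25a14 was lost with centred arrays, with robust eBayes and without C57BL/6 24 h replicate 1. The share called among all genes with the motif was not computed, and a link between motif and response was not tested.

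At 24 h the carriers had separated into a rising and a falling set (the map of all 26 arrays). Averaged over the 3 strains, 17 of 39 were called higher than in unstimulated cells, 9 lower and 13 were not called, at an adjusted p under 0.05 (limma with Benjamini-Hochberg adjustment over all genes). That is 66.7% called, against 40.4% of all 17097 genes, of which 22.9% were higher and 17.4% lower. The members' median difference was 0.14, against 0.06 for all genes, with a range from -1.48 for Slc25a36 to 2.06 for Slc25a33. In 12 of the 26 called carriers no 24 h array overlapped an unstimulated one, which is 30.8% of the 39 against 20.8% of all genes, but 46.2% of the called carriers against 51.6% of all called genes. In whole cell RNA, fewer cells of a kind and less RNA per cell cannot be told apart, and this holds for every level given here. Without the 3 dimmest arrays 20 were called higher and 13 lower. The shares of all genes in that fit are not given here, and those above belong to the fit with 26 arrays.

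**Figure D1:**
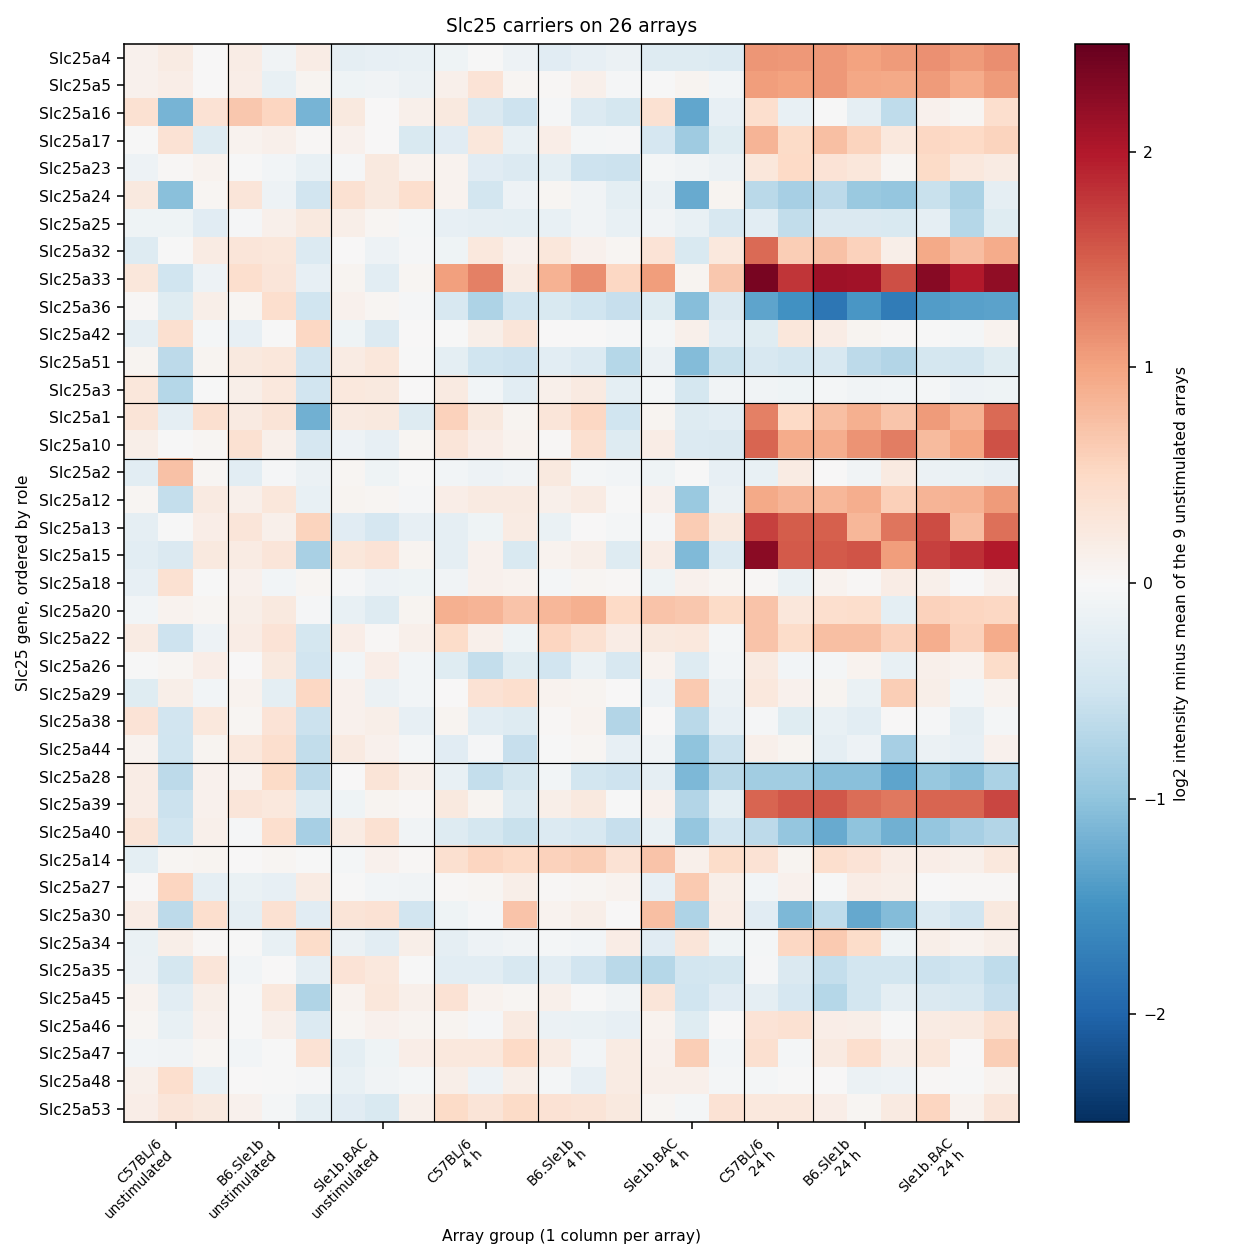
Each row is a carrier, ordered by role, and each column 1 of the 26 biological arrays, grouped by time and strain. Colour gives the log2 intensity minus the gene's mean over the 9 unstimulated arrays: the 24 h columns of Slc25a33, Slc25a15 and Slc25a39 are red and those of Slc25a36 blue in all 3 strains.

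At 4 h fewer carriers were called than at 24 h, and more of them lower than higher. Here 4 were called higher (Slc25a33, Slc25a20, Slc25a14 and Slc25a53), 9 lower and 26 were not called. The share called was 33.3%, against 18.2% of all genes (8.15% higher, 10.1% lower), and the members' median was -0.05 against 0.02 for all genes. Of the 13 called, Slc25a20 and Slc25a14 had no array overlap between the times (15.4%, against 23.4% of all called genes), which is 5.13% of the 39 against 4.25% of all genes. The split depended on the scaling. It was 5 higher and 6 lower after a second quantile normalization, and 4 higher and 5 lower with arrays centred on their median. Without the 3 dimmest arrays it was 4 higher and 12 lower. The shares of all genes under these settings are not given here. From 4 h to 24 h, 15 rose, 9 fell and 15 were not called, which is 61.5% called against 34.6% of all genes (20.5% higher, 14.1% lower); with centred arrays 16 rose and 5 fell. Of the 9 falls from 4 h to 24 h, 6 were lost without 1 array. Slc25a24 (-0.47, adjusted p = 0.0469) lost its call without any of 17 of the 26 arrays (-0.50 to -0.39, adjusted p 0.0503 to 0.112) and Slc25a25 (-0.20) without any of 10 (-0.21 to -0.15). Without C57BL/6 24 h replicate 2, 1 of only 2 biological arrays in its group, Slc25a30 became -0.61 (adjusted p = 0.0516), Slc25a40 -0.41 (adjusted p = 0.0677), Slc25a20 -0.24 (adjusted p = 0.0902) and Slc25a14 -0.19 (adjusted p = 0.094). By pattern, 11 carriers were called only at 24 h and higher, 3 only at 24 h and lower, 4 higher at both times, 6 lower at both, and 12 at neither. Slc25a4 and Slc25a23 were called lower at 4 h and higher at 24 h, and Slc25a26 lower at 4 h alone, through 1 of its 3 probe sets. Both activation times are compared with the same unstimulated arrays.

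**Figure D2:**
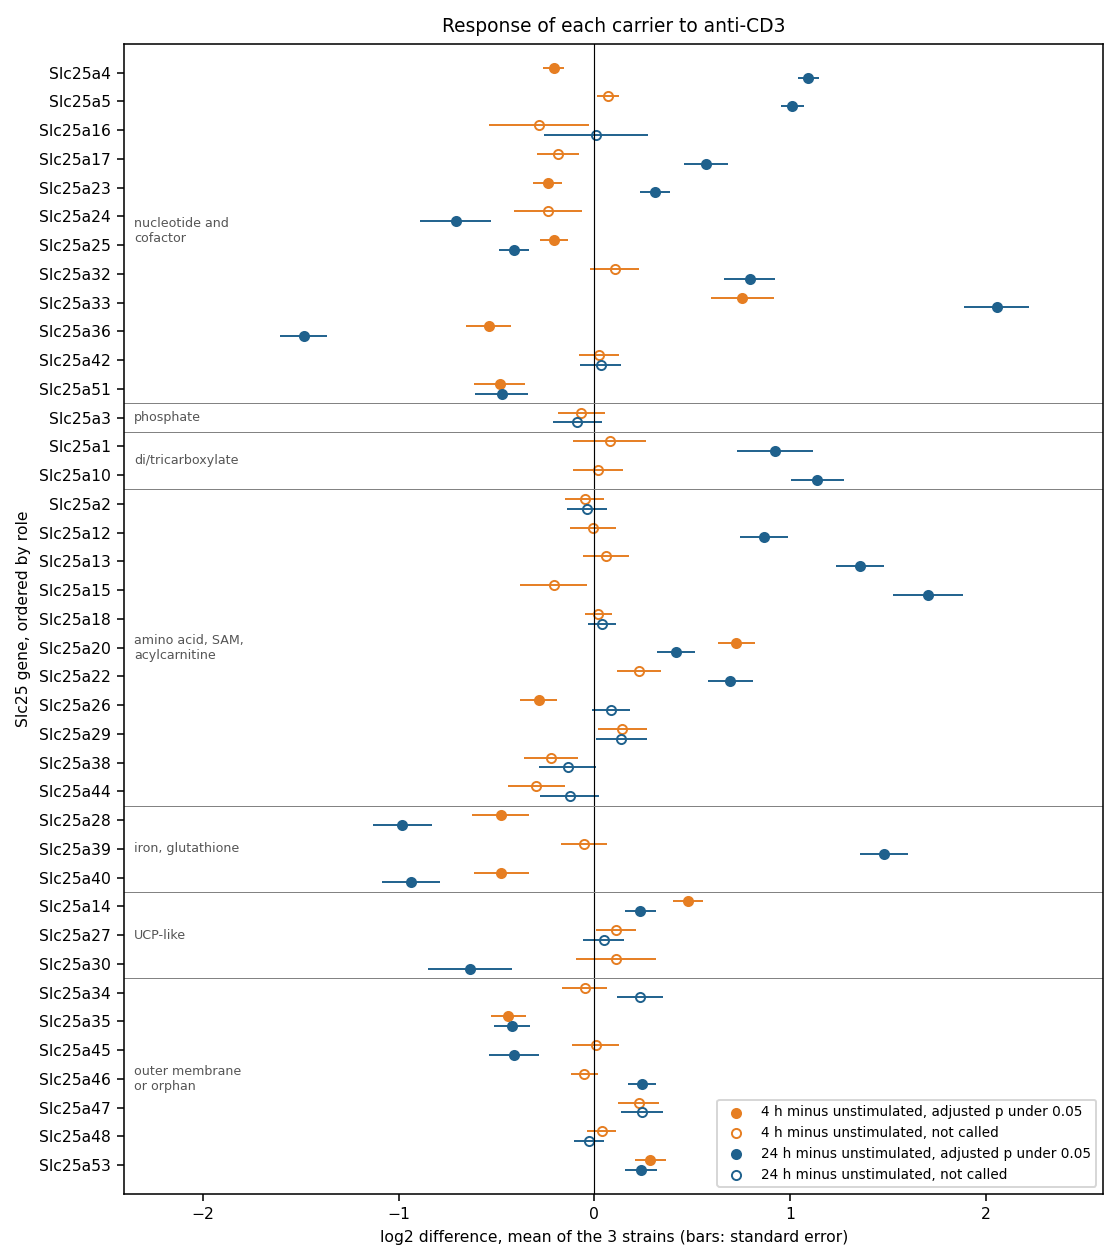
Points give the log2 difference from unstimulated cells averaged over the 3 strains at 4 h (orange) and 24 h (blue), bars the standard error, and filled points the calls at an adjusted p under 0.05. The blue points spread from -1.48 (Slc25a36) to 2.06 (Slc25a33), and the orange ones from -0.54 to 0.76.

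Nucleotide carriers gave both the highest rise and the deepest fall. Of the 12 carriers of nucleotides, coenzymes and cofactors, 6 were called higher at 24 h, 4 lower and 2 were not called, with a median of 0.17. By comparison, 22.9% of all genes were higher and 17.4% lower at 24 h. The pair Slc25a33 and Slc25a36 both carry pyrimidine nucleotides into the matrix, where they serve mitochondrial DNA and RNA synthesis. Slc25a33 (lowest, median and highest array) stood at 4.68, 5.22 and 5.59 in unstimulated cells, 5.24, 6.05 and 6.44 at 4 h and 6.78, 7.28 and 7.54 at 24 h. Every 24 h array was above every earlier one, whereas the 4 h arrays overlapped the unstimulated ones. The difference was 0.76 ± 0.16 (SE, 1.69-fold, adjusted p = 0.00131) at 4 h and 2.06 ± 0.17 (4.16-fold, adjusted p = 6.29e-10) at 24 h. Slc25a36 stood at 8.51, 9.06 and 9.42 in unstimulated cells, 7.93, 8.50 and 8.70 at 4 h and 7.19, 7.57 and 7.68 at 24 h. Its 24 h arrays were all below the earlier ones. It fell by 0.54 ± 0.11 at 4 h (1.45-fold, adjusted p = 0.00137) and by 1.48 ± 0.12 at 24 h (2.80-fold, adjusted p = 5.66e-10), and its second probe set gave -1.79 at 24 h.

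The adenine nucleotide translocases Slc25a4 (ANT1) and Slc25a5 (ANT2), which exchange cytosolic ADP for matrix ATP, both rose late. Slc25a4 stood at 8.34, 8.56 and 8.76 in unstimulated cells, 8.21, 8.36 and 8.55 at 4 h and 9.56, 9.65 and 9.73 at 24 h. The 24 h arrays were well apart, and the 4 h arrays lay slightly lower with overlap. It fell by 0.21 ± 0.05 at 4 h (adjusted p = 0.00536), a call that was lost after a second quantile normalization (-0.17, adjusted p = 0.052) and with the mean of its probe sets (-0.10, adjusted p = 0.261). It was 1.09 ± 0.05 higher at 24 h (2.13-fold, adjusted p = 1.6e-13), while its second probe set, with a mean of 2.05, gave -0.04. Slc25a5 stood at 10.89, 11.10 and 11.26 unstimulated, 11.02, 11.14 and 11.42 at 4 h and 12.02, 12.11 and 12.16 at 24 h. It was 1.01 ± 0.06 higher at 24 h (2.02-fold, adjusted p = 3.89e-12), with no overlap, and was not called at 4 h. Its probe set is of a kind that can read related sequences, and RefSeq lists a pseudogene of Slc25a5, so part of its signal may not be its own. By contrast the phosphate carrier Slc25a3, which supplies the phosphate for ATP synthesis, stood at 10.32, 11.18 and 11.33 unstimulated, 10.59, 10.98 and 11.26 at 4 h and 10.90, 10.96 and 10.99 at 24 h. These ranges overlapped and the difference of -0.09 ± 0.13 at 24 h was not called (adjusted p = 0.648), while its dimmer probe set gave -0.99.

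The ATP-Mg/phosphate carriers, which adjust the matrix adenine nucleotide pool in response to calcium, split. Slc25a24 stood at 5.48, 6.76 and 6.95 unstimulated and at 5.56, 5.79 and 6.29 at 24 h. The ranges overlapped: of the lowest unstimulated arrays, 5.48 (C57BL/6 replicate 2) lay below every 24 h array and 6.04 (B6.Sle1b replicate 3) within their range, and both are among the dim ones. Slc25a24 fell by 0.71 ± 0.18 at 24 h (1.63-fold, adjusted p = 0.00264) and Slc25a25 by 0.41 ± 0.07 (1.33-fold, adjusted p = 7.84e-05). Slc25a23 stood at 3.35, 3.53 and 3.78 unstimulated, 3.01, 3.30 and 3.63 at 4 h and 3.60, 3.83 and 4.04 at 24 h, ranges that overlapped. It was 0.24 ± 0.07 lower at 4 h (adjusted p = 0.0231) and 0.31 ± 0.08 higher at 24 h (adjusted p = 0.00167).

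Of the coenzyme and cofactor carriers, Slc25a32, which brings folate into the matrix for one-carbon metabolism, stood at 4.77, 5.09 and 5.41 unstimulated and 5.24, 5.85 and 6.51 at 24 h. It was 0.79 ± 0.13 higher (1.73-fold, adjusted p = 2.41e-05), with overlap. Its only probe set is, like that of Slc25a5, of a kind that can read related sequences. Slc25a17, a peroxisomal carrier of coenzyme A and other cofactors, went from 5.76, 6.17 and 6.49 to 6.41, 6.68 and 6.98 and was 0.57 ± 0.11 higher (1.49-fold, adjusted p = 2e-04). Slc25a51, the NAD+ carrier, was the opposite case. It stood at 7.60, 8.33 and 8.55 unstimulated, 7.18, 7.75 and 8.11 at 4 h and 7.53, 7.80 and 7.96 at 24 h, and was lower by 0.48 ± 0.13 at 4 h (adjusted p = 0.00984) and 0.47 ± 0.13 at 24 h (adjusted p = 0.00631). Its other probe sets gave -1.20 and 0.09 at 24 h, so the size depends on the probe set, and with their mean the 4 h call was lost (-0.35, adjusted p = 0.0656). Slc25a16 and Slc25a42, both linked to coenzyme A transport, were not called at any time, with differences at 24 h of 0.01 ± 0.27 and 0.03 ± 0.11.

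Both measured di- and tricarboxylate carriers rose, and neither was called at 4 h. Slc25a1 exports citrate, the cytosolic source of acetyl-CoA for lipid synthesis, and Slc25a10 exchanges malate or succinate for phosphate. Slc25a1 stood at 4.91, 6.35 and 6.53 unstimulated and 6.62, 6.99 and 7.53 at 24 h, with no overlap although the lowest unstimulated array stood far below the rest. That array was the dim unstimulated B6.Sle1b replicate 3. It was 0.92 ± 0.19 higher at 24 h (1.90-fold, adjusted p = 4.31e-04). Slc25a10 went from 3.49, 3.96 and 4.31 to 4.71, 4.97 and 5.51, also without overlap, and was 1.14 ± 0.13 higher (2.20-fold, adjusted p = 2.31e-07). Its dimmer probe set was 0.29 higher.

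Among the 11 carriers of amino acids, S-adenosylmethionine and acylcarnitines, 5 were called higher at 24 h, 0 lower and 6 were not called, with a median of 0.14. Over all genes the shares were 22.9% higher and 17.4% lower. The highest of these carriers was Slc25a15, which exchanges ornithine for citrulline across the inner membrane. It stood at 3.90, 4.92 and 5.07 unstimulated, 3.61, 4.49 and 4.90 at 4 h and 5.76, 6.36 and 6.97 at 24 h. All 24 h arrays were above all others, and the difference from unstimulated cells was 1.71 ± 0.18 (3.26-fold, adjusted p = 3.29e-08), with 0.52 for its dimmer probe set. The aspartate-glutamate carriers of the malate-aspartate shuttle, Slc25a12 and Slc25a13, rose together. Slc25a13 went from 3.67, 4.10 and 4.65 to 4.87, 5.54 and 5.80 (2.57-fold, 1.36 ± 0.12, adjusted p = 3.71e-09), and Slc25a12 from 6.53, 7.17 and 7.39 to 7.71, 7.97 and 8.17 (1.82-fold, 0.87 ± 0.12, adjusted p = 3.59e-06). Neither pair of ranges overlapped, although the dimmer probe set of Slc25a12 gave 0.20 and was not called. Slc25a22, a glutamate carrier, went from 5.10, 5.76 and 5.97 to 6.08, 6.35 and 6.54 without overlap (1.62-fold, 0.70 ± 0.12, adjusted p = 3.02e-05).

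The carnitine-acylcarnitine carrier Slc25a20, which brings fatty acids into the matrix for oxidation, had an early course. It stood at 6.56, 6.93 and 7.14 unstimulated, 7.36, 7.60 and 7.78 at 4 h and 6.65, 7.37 and 7.60 at 24 h. The 4 h arrays were all above the unstimulated ones, and the 24 h arrays reached back into the unstimulated range. It was 0.73 ± 0.09 higher at 4 h (1.65-fold, adjusted p = 3.51e-06) and 0.42 ± 0.10 at 24 h (1.34-fold, adjusted p = 0.00104). Between 4 h and 24 h it fell by 0.31 (adjusted p = 0.014), a call that was lost without C57BL/6 24 h replicate 2 (-0.24, adjusted p = 0.0902). That call was also lost with the mean of its probe sets. Its second probe set was called higher at 4 h (0.57) and 24 h (0.39), but its fall of 0.18 between them was not called. Within strains the 24 h rise was called in Sle1b.BAC (0.69), and not in C57BL/6 (0.48) or B6.Sle1b (0.09). Slc25a26, which imports S-adenosylmethionine, was 0.28 ± 0.09 lower at 4 h (adjusted p = 0.0385) and was not called at 24 h. Its other probe sets gave 0.20 and -0.042 at 4 h, neither called, the mean of its probe sets gave -0.042 (adjusted p = 0.704), and the 4 h call was lost in 14 of 40 alternatives. Not called at either time were Slc25a29 (basic amino acids), Slc25a38 (glycine for haem synthesis), Slc25a44 (branched-chain amino acids) and the background-level Slc25a2 and Slc25a18. Slc25a38 stood at 5.98, 6.62 and 6.85 unstimulated and 6.22, 6.40 and 6.53 at 24 h, a difference of -0.14 ± 0.15 (adjusted p = 0.512).

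The iron and glutathione carriers moved in opposite directions. Slc25a39 and Slc25a40 are paralogs, and Slc25a39 is known to bring glutathione into the matrix. Slc25a39 stood at 7.55, 8.17 and 8.41 unstimulated, 7.37, 8.17 and 8.35 at 4 h and 9.42, 9.55 and 9.77 at 24 h. It did not differ detectably at 4 h, and at 24 h was 1.48 ± 0.12 higher (2.79-fold, adjusted p = 1.09e-09) with no overlap. The next brightest probe sets of Slc25a39 gave 1.47 and 1.42, and the dimmest -0.01. The brightest and the one giving 1.47 are of the kind that can read related sequences, and the one giving 1.42 is not. Slc25a40 stood at 5.56, 6.52 and 6.81, then 5.41, 5.95 and 6.21, and 5.12, 5.42 and 5.74 at 24 h. The lowest unstimulated array overlapped the 24 h range, and the gene fell by 0.47 ± 0.14 at 4 h (1.39-fold, adjusted p = 0.0214) and 0.94 ± 0.15 at 24 h (1.91-fold, adjusted p = 1.47e-05). Slc25a28, mitoferrin-2, which imports iron, stood at 6.36, 7.13 and 7.50, then 5.91, 6.57 and 6.95, and 5.71, 6.02 and 6.23 at 24 h. Its 24 h and unstimulated arrays did not overlap, and it fell by 0.48 ± 0.15 at 4 h (adjusted p = 0.0228) and 0.98 ± 0.15 at 24 h (1.97-fold, adjusted p = 1.02e-05). Markers of erythroid cells, which use iron and glycine carriers for haem, also fell: the summed intensity of the 4 measured of 6 listed was 864 to 3914 unstimulated (median 3392), 672 to 3699 at 4 h (3044) and 224 to 1815 at 24 h (1232), with Alas2 at background at 24 h. Their part in the results for Slc25a28, Slc25a39, Slc25a40 and Slc25a38 was not tested.

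**Figure D3:**
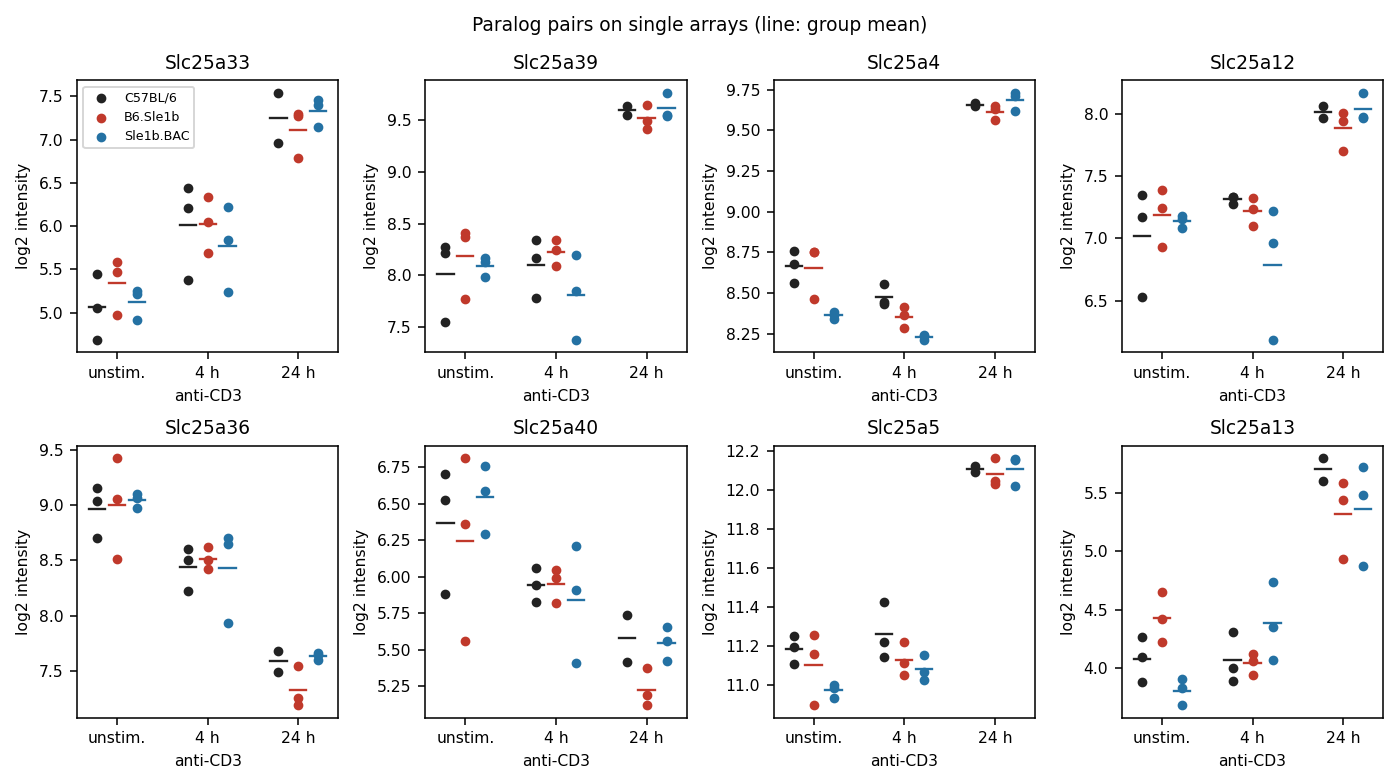
Each point is 1 array (log2 intensity) by time and strain, and each line a group mean, for the pairs Slc25a33 and Slc25a36, Slc25a39 and Slc25a40, Slc25a4 and Slc25a5, Slc25a12 and Slc25a13. In the first pair and in the second, the upper gene is higher and the lower gene is lower at 24 h in all 3 strains, whereas both genes of the last pairs are higher.

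Of the 3 uncoupling-protein-like carriers, Slc25a14 (UCP5) rose early. It stood at 5.32, 5.61 and 5.69 unstimulated, 5.70, 6.06 and 6.29 at 4 h and 5.64, 5.80 and 5.99 at 24 h. The 4 h arrays just cleared the unstimulated ones, for a difference of 0.48 ± 0.07 (1.39-fold, adjusted p = 5e-05), and at 24 h it was 0.24 ± 0.08 (adjusted p = 0.0178). Slc25a14 was not called at 24 h without C57BL/6 24 h replicate 1 (0.19, adjusted p = 0.0923). Slc25a30 was lower at 24 h by 0.64 ± 0.21 (adjusted p = 0.0199), with ranges of 5.15, 5.99 and 6.22 unstimulated and 4.52, 5.24 and 6.05 at 24 h that overlapped. That call for Slc25a30 was lost without C57BL/6 24 h replicate 2 (-0.50, adjusted p = 0.107). Slc25a27 (UCP4) was not called.

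The remaining 7 carriers include the outer membrane protein Slc25a46, known for its part in mitochondrial fusion and fission, and members with no settled substrate. At 24 h 2 were called higher, 2 lower and 3 were not called, where 22.9% of all genes were higher and 17.4% lower. Slc25a46 stood at 7.22, 7.60 and 7.68 unstimulated and 7.54, 7.77 and 7.95 at 24 h, and was 0.24 ± 0.07 higher (adjusted p = 0.00966) with overlap. Its second probe set gave 0.19 and was not called, and the call was lost with arrays centred on their median (adjusted p = 0.0542). Slc25a45 fell by 0.41 ± 0.13 (1.33-fold, adjusted p = 0.0115), with 5.92, 6.77 and 6.96 unstimulated and 5.96, 6.27 and 6.45 at 24 h. Slc25a35 was dim, at background in 3 groups at 4 h and 2 at 24 h. Averaged over the strains its level was at least 1.19-fold lower at 4 h (adjusted p = 8.27e-04) and at least 1.18-fold lower at 24 h (adjusted p = 6.41e-04). Within strains Slc25a35 was called only in Sle1b.BAC, at least 1.43-fold lower at both times. In C57BL/6 and B6.Sle1b the differences were -0.21 and -0.37 at 4 h and -0.09 and -0.41 at 24 h. No contrast of its responses between strains was called. Slc25a53 had no settled direction: its brightest probe set was 0.29 higher at 4 h and 0.24 higher at 24 h, and its dimmer one -0.40 and -0.67, each called. Slc25a34, Slc25a47 and Slc25a48 were not called, with the differences 0.23, 0.24 and -0.03 at 24 h.

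The 4 h calls of lower carriers were small and several lay near the threshold. The calls of Slc25a28 were lost without any 1 of 6 arrays, namely unstimulated C57BL/6 replicates 1 and 3, unstimulated B6.Sle1b replicate 2, unstimulated Sle1b.BAC replicate 2, C57BL/6 4 h replicate 2 and Sle1b.BAC 4 h replicate 2 (-0.45 to -0.39, adjusted p 0.0507 to 0.0583). Slc25a40 lost its call without any of 4 of these, unstimulated C57BL/6 replicate 1, unstimulated B6.Sle1b replicate 2, unstimulated Sle1b.BAC replicate 2 and Sle1b.BAC 4 h replicate 2 (-0.44 to -0.38, adjusted p 0.0507 to 0.0551). Slc25a23 lost it without any of 5 arrays (-0.22 to -0.21), namely unstimulated C57BL/6 replicate 3, unstimulated Sle1b.BAC replicate 2, C57BL/6 4 h replicates 2 and 3 and B6.Sle1b 4 h replicate 3. Slc25a26 lost it without any of 9 of the 26 arrays (-0.29 to -0.23) and Slc25a25, called at 4 h with -0.20 ± 0.07 (adjusted p = 0.0497), without any of 18 (-0.22 to -0.18). The Slc25a25 call was also lost with the replicate number as a block within B6.Sle1b (-0.20, adjusted p = 0.0541). The falls of Slc25a36, Slc25a51, Slc25a35 and Slc25a4 stayed called when any 1 array was left out, but those of Slc25a51 and Slc25a4 were lost with the mean of probe sets and that of Slc25a4 also after a second quantile normalization, as given above.

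The response had the same sign in all 3 strains for each of the 13 carriers called at 4 h and the 26 called at 24 h. These carriers were called on the mean of the same 3 strains, which favours a shared sign. The share with a shared sign among all called genes was not computed, so this is not separate evidence from each strain. At 24 h 12 carriers were called higher and 2 lower in C57BL/6, where 24.3% of all genes were called (15.7% higher, 8.6% lower). In B6.Sle1b 10 were higher and 6 lower, against 28.2% of all genes (14.8% and 13.4%), and in Sle1b.BAC 14 and 7, against 29.1% (17.2% and 11.9%). At 4 h the counts were 3 and 0 in C57BL/6 (7.04% of all genes, 4.08% higher and 2.97% lower), 2 and 1 in B6.Sle1b (5.69%, 2.57% and 3.12%) and 2 and 3 in Sle1b.BAC (10.6%, 4.22% and 6.35%). These counts within a strain were not stable: over the alternatives the total at 4 h ran from 1 to 11 in C57BL/6, 0 to 13 in B6.Sle1b and 2 to 9 in Sle1b.BAC, and at 24 h from 8 to 21, 11 to 29 and 17 to 25. The 8 in C57BL/6 at 24 h came with the compared groups alone and also without its 24 h replicate 1. With the replicate number as a block within B6.Sle1b, where same-numbered arrays deviated together, its counts were 3 and 16 in all, and that of Sle1b.BAC at 4 h was 8. At 24 h 9 carriers were called higher in every strain: Slc25a4, Slc25a5, Slc25a10, Slc25a12, Slc25a13, Slc25a15, Slc25a22, Slc25a33 and Slc25a39. Slc25a36 and Slc25a40 were called lower in every strain, and none was called in opposite directions. Slc25a33 was 2.19, 1.77 and 2.21 higher in C57BL/6, B6.Sle1b and Sle1b.BAC, and Slc25a36 changed by -1.38, -1.67 and -1.41. At 4 h Slc25a20 (0.79, 0.62 and 0.77) and Slc25a14 (0.53, 0.50 and 0.40) were called in each strain. The share of all genes called in every strain was not computed at either time. Whether these counts are unusual is therefore not known. The span between the strains' responses had a median of 0.21 at 4 h and 0.34 at 24 h, with the widest for Slc25a28 (0.55) and Slc25a13 (0.73).

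No carrier differed between strains by the test used. In 12 strain contrasts (3 pairs, at the 3 times and averaged over them) limma called 0 of 39, and the same holds for the 6 contrasts of responses. Over the mean of the times 0.333% of all genes were called for B6.Sle1b against C57BL/6, 0.228% for Sle1b.BAC against C57BL/6 and 0.0819% for Sle1b.BAC against B6.Sle1b. In unstimulated cells, at 4 h and at 24 h the shares were 0.123%, 0.0409% and 0.0409% for the first pair, 0.0585%, 0.0643% and 0.0351% for the second and 0.0819%, 0% and 0% for the third. Of the responses only that of Sle1b.BAC against B6.Sle1b at 24 h had any gene called (0.00585%). At an unadjusted p under 0.05 each of the strain contrasts had 1 to 4 carriers. Over the mean of the times these were 3, 4 and 4 of 39 for the 3 pairs in that order. Of all 17097 genes, 873, 1172 and 1041 passed there. In unstimulated cells 2, 3 and 2 carriers passed, and 707, 968 and 1390 of all genes. Whether carriers passed more often than other genes was not tested, so these counts are not evidence of strain differences. The smallest adjusted p was 0.314, for Slc25a4 in Sle1b.BAC against C57BL/6 over the mean of the times (-0.17 ± 0.05). Its unstimulated arrays read 8.68, 8.76 and 8.56 in C57BL/6, 8.75, 8.46 and 8.75 in B6.Sle1b and 8.34, 8.36 and 8.38 in Sle1b.BAC. The Sle1b.BAC arrays lay below all the others, with a difference from C57BL/6 of -0.30 ± 0.09 that was not called (adjusted p = 0.776). Over the mean of the times the 95% intervals of all 39 carriers lay within a 2-fold difference in each pair of strains, the farthest bound being 0.73 on the log2 scale.

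**Figure D4:**
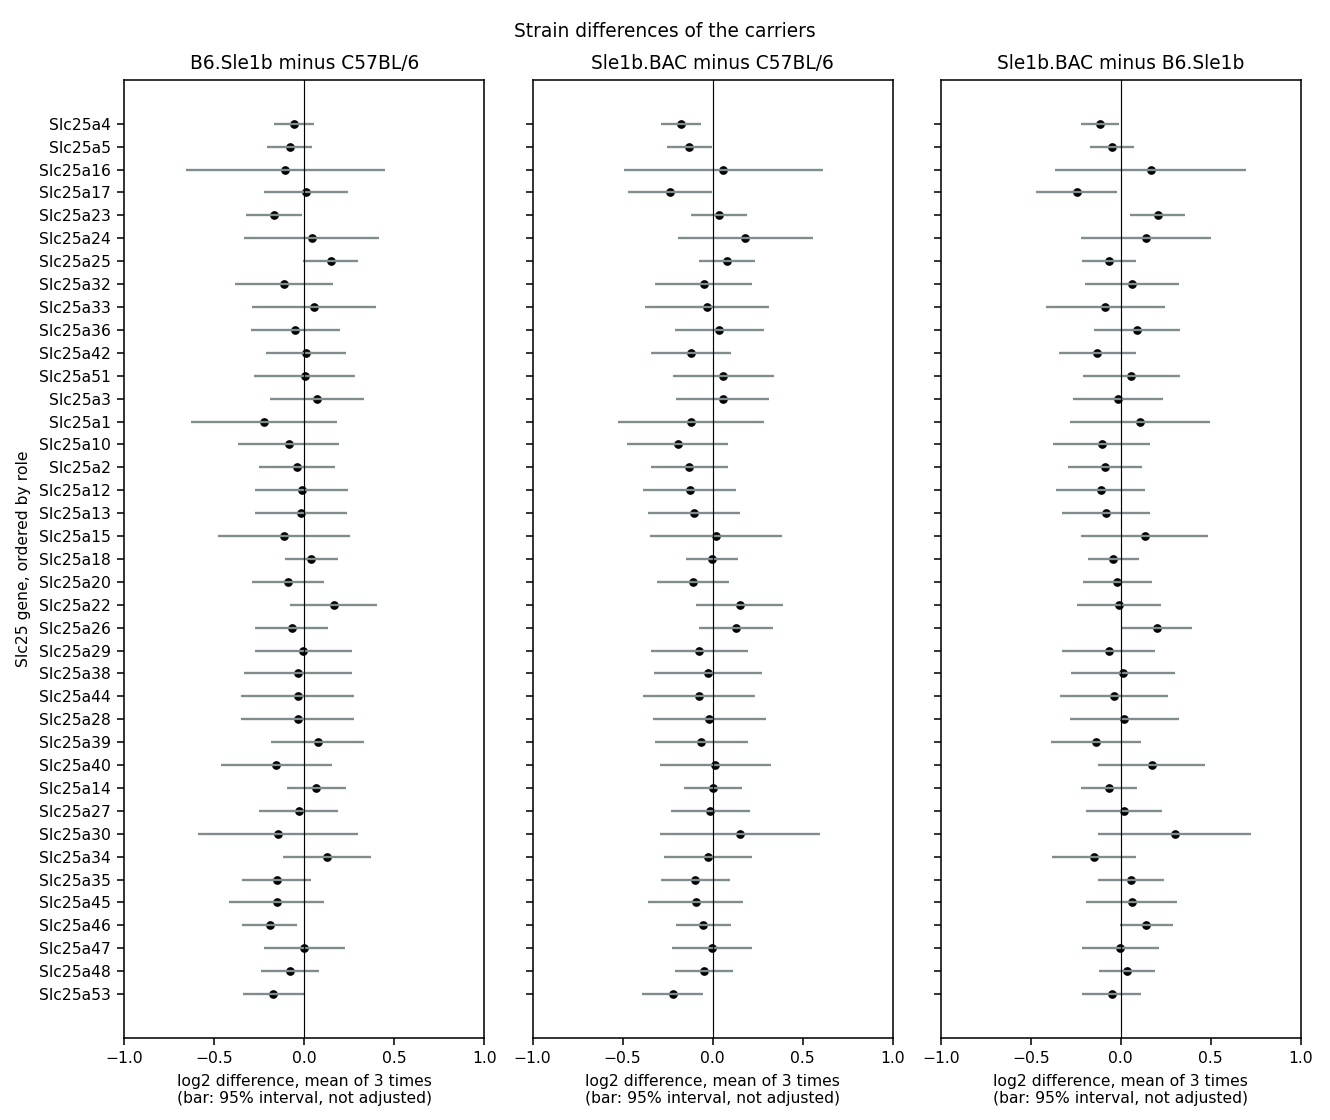
Points give the log2 difference between 2 strains averaged over the 3 times for each carrier, and bars the 95% interval, not adjusted for the number of genes. Every interval lies between -1 and 1, and none of the 39 carriers was called in any panel.

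Of the other carriers the rule names in each strain pair, Slc25a53 was -0.22 ± 0.08 in Sle1b.BAC against C57BL/6 over the mean of the times (adjusted p = 0.495). Slc25a46 (-0.19 ± 0.07, adjusted p = 0.719) and Slc25a23 (-0.17 ± 0.08, adjusted p = 0.914) had the smallest p in B6.Sle1b against C57BL/6. For Sle1b.BAC against B6.Sle1b these were Slc25a23 (0.20 ± 0.07, adjusted p = 0.665) and Slc25a17 (-0.25 ± 0.11, adjusted p = 0.792). Among the responses, the smallest adjusted p was 0.774, for Slc25a13 at 4 h. Its unstimulated arrays read 4.41, 4.22 and 4.65 in B6.Sle1b and 3.82, 3.67 and 3.90 in Sle1b.BAC, and at 4 h 3.94, 4.12 and 4.06 against 4.06, 4.74 and 4.35. The groups were apart when unstimulated and overlapped at 4 h, and the responses of -0.39 and 0.58 differed by 0.97 ± 0.29, which was not called. With array weights, which give scattered arrays less influence, 8 carriers were called between unstimulated Sle1b.BAC and B6.Sle1b, with Slc25a4, Slc25a5, Slc25a10, Slc25a13, Slc25a20, Slc25a39 and Slc25a53 lower and Slc25a35 higher in Sle1b.BAC. The same setting called 5 carriers in the difference between their 24 h responses, namely Slc25a4, Slc25a13, Slc25a20, Slc25a32 and Slc25a53. The shares of all genes called with array weights are not given here, and those above belong to the main fit. Whether these 8 and 5 are unusual is therefore not known.

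Genes of the machinery that inserts carriers into the inner membrane mostly rose. Of 16 listed import genes 13 were measured, and at 24 h 11 were called higher, 0 lower and 2 were not called, with a median of 0.76. Over all genes 22.9% were called higher and 17.4% lower at 24 h. Timm10 was 2.11 ± 0.10 higher (4.33-fold, adjusted p = 4.15e-14) and Timm9 2.13 ± 0.13 (4.39-fold, adjusted p = 6e-12); both encode small chaperones that guide carriers between the membranes. Tomm70a, the outer membrane receptor for carriers, was 1.26 ± 0.07 higher (2.39-fold, adjusted p = 9.14e-13). Timm10 was already 1.23 ± 0.09 higher at 4 h (2.34-fold, adjusted p = 1.18e-09), when 3 of the 13 were called higher and 0 lower. The shares of all genes at 4 h were 8.15% higher and 10.1% lower. Of the family's proteins under other symbols, 4 of 5 were measured: Mtch1 (0.96 ± 0.11) and Mtch2 (0.59 ± 0.07), both in the outer membrane, were called higher at 24 h, and Ucp1 and Ucp3 were not called.

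Of 9 measured other mitochondrial transporters out of 12, 5 were called higher at 24 h and 1 lower, with a median of 0.55. The shares of all genes at 24 h, 22.9% higher and 17.4% lower, apply here and to the enzymes below. The outer membrane channels Vdac1 (1.21 ± 0.09), Vdac2 (0.78 ± 0.07) and Vdac3 (0.55 ± 0.06) were all higher, whereas the sideroflexin Sfxn3 fell by 1.45 ± 0.15. Enzymes that use or supply the carriers' substrates were mixed: 26 of 34 were measured, of which 13 were called higher, 7 lower and 6 were not called at 24 h, with a median of 0.31. Those with the smallest adjusted p were Shmt2 (2.68 ± 0.17), which uses folate in the matrix, Mthfd1l (1.74 ± 0.14), also of the folate cycle, Acaca (1.90 ± 0.17), which uses acetyl-CoA made from citrate, and Odc1 (-1.46 ± 0.08), which uses ornithine. At 4 h 1 enzyme was called higher and 5 lower, among them Cpt1a (-0.94 ± 0.13) and Oat (-0.59 ± 0.07). At that time 8.15% of all genes were called higher and 10.1% lower. Cpt1a makes the acylcarnitines that Slc25a20 carries, and at 24 h it stood at -1.06 ± 0.14 while Slc25a20 was 0.42 higher.

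**Figure D5:**
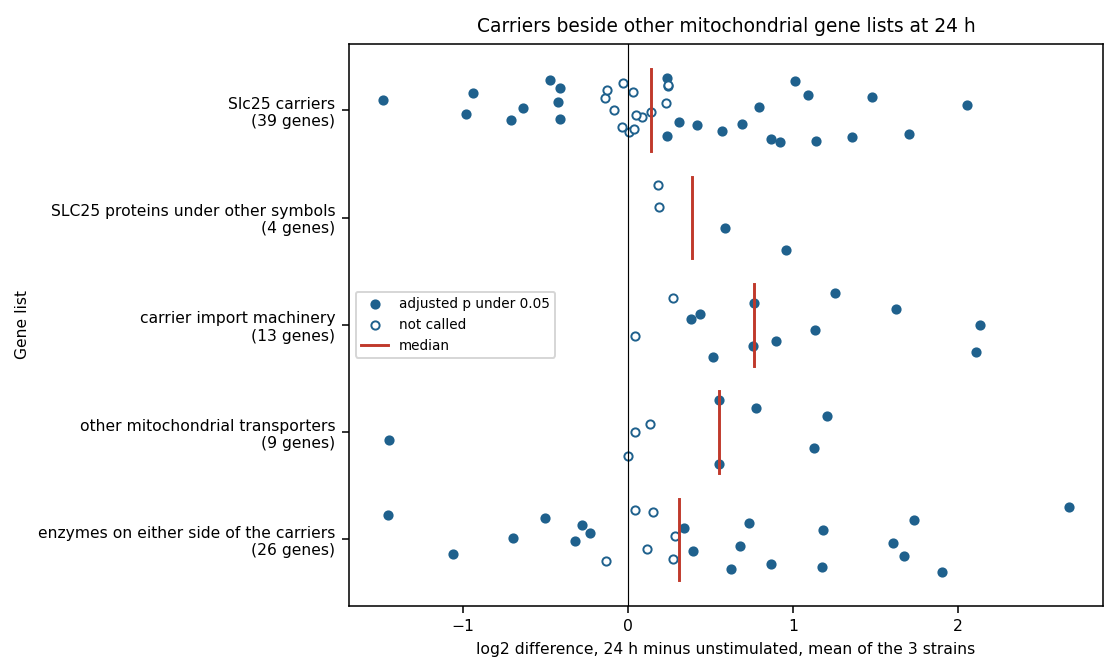
Each point is a gene's log2 difference at 24 h from unstimulated cells averaged over the 3 strains, filled where the adjusted p was under 0.05, with a red line at the list's median. The medians are 0.14 for the 39 carriers, 0.39 for the 4 family members under other symbols, 0.76 for the 13 import genes, 0.55 for the 9 other transporters and 0.31 for the 26 enzymes.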

How the data were processed

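Each of 28 samples was read on 1 Affymetrix HT MG-430 PM array. The deposited values are linear intensity values for 45141 probe sets, which per the submitters' processing notes come from RMA, whose version is not given in the sources used here. Log2 was taken, with no filter and no pseudocount. Of the probe sets 28898 carry 1 gene symbol and 551 several, which name no gene here. Each of 17097 genes was read through its brightest probe set. Array background was the 95th percentile of 23 non-specific control probe sets.

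Groups follow the strain and time in the labels. One fit with limma 3.58.1 in R 4.3.3 gave each of the 9 groups a mean over 26 biological arrays, followed by 27 contrasts and eBayes, with Benjamini-Hochberg adjustment of each contrast's p-values across the 17097 genes and calls under 0.05. The steps were tested on simulated data. Of 100 pairs of samples with the same replicate number 45 correlated above 0.1 in their deviations from group means (range -0.815 to 0.816 over 5157 genes), so the numbers were not taken as pairing across strains. Within B6.Sle1b all 9 pairs did (0.144 to 0.734), against 2 of 7 in C57BL/6 and 4 of 9 in Sle1b.BAC, so a block by number within B6.Sle1b was added after seeing the data. The text accounts for every member and describes those called in activation contrasts and, for strains, the 2 with the smallest p in selected contrasts; of other gene lists it names up to 4 genes with the smallest adjusted p per contrast, and a few more whose role touches a carrier. The members and lists were chosen with earlier results of these data known. Promoters come from RefSeq's table. Alternatives covered normalization, centring, brightness, array weights, probe set choice, the technical arrays, blocks, eBayes options, the arrays fitted and leaving out each array.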

Additional observations from a re-analysis of the deposited data

How the results depend on the processing

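Of the 63 differences called for single carriers in the activation contrasts averaged over strains, 45 kept their direction and call in all 40 alternatives. With the mean of all probe sets in place of the brightest, Slc25a53 turned to -0.057 at 4 h and -0.22 at 24 h, because its probe sets oppose each other, and the rises of Slc25a4, Slc25a10, Slc25a12 and Slc25a15 at 24 h shrank to 0.53, 0.72, 0.53 and 1.11 and the falls of Slc25a25 and Slc25a30 to -0.21 and -0.34, all still called; the count at 4 h became 8 in place of 13. Counts of carriers called at 4 h within a strain moved most. In C57BL/6 the count of 3 became 5 after a second quantile normalization, 1 with centred arrays, 7 with a brightness covariate, 11 with array weights, 1 with the compared groups alone and 7 without the 3 dimmest arrays. In B6.Sle1b the count of 3 became 0, 6, 13, 1, 1, 0 and 7 with centred arrays, the covariate, weights, the mean of probe sets, robust eBayes, the compared groups alone and without the dimmest arrays. In Sle1b.BAC the count of 5 became 9 after quantile normalization, 2 with centred arrays, 8 with the covariate, 3 with weights and 2 with the compared groups alone. At 24 h the count of 14 in C57BL/6 became 8 with the compared groups alone, and that of 16 in B6.Sle1b 29 with weights. Strain contrasts went from 0 to 1 (Sle1b.BAC against C57BL/6 at 4 h, Slc25a12) with the covariate, and with weights to 1 (the same pair unstimulated, Slc25a53), 8 (Sle1b.BAC against B6.Sle1b unstimulated), 1 (the 4 h response of B6.Sle1b against C57BL/6, Slc25a4) and 5 (the 24 h response of Sle1b.BAC against B6.Sle1b); the cause was not tested. With the replicate number as a block, calls averaged over strains numbered 12 at 4 h and 26 at 24 h, and with strain and number as a random replicate block the 4 h count of Sle1b.BAC was 9; a replicate block within B6.Sle1b alone gave 12, 26 and, in Sle1b.BAC at 4 h, 8. Leaving out each array in turn gave 8 to 13 at 4 h (8 without unstimulated Sle1b.BAC replicate 2), 25 to 28 at 24 h, 18 to 25 for 24 h against 4 h, 1 to 4, 0 to 3 and 2 to 9 at 4 h in C57BL/6, B6.Sle1b and Sle1b.BAC, 8 to 16, 12 to 18 and 17 to 22 at 24 h in the same order, and 0 in the strain contrasts and contrasts of responses. The 8 in C57BL/6 at 24 h came without replicate 1 of its 2 biological arrays. The shares of all genes called under each alternative are not given here, so these counts cannot be set against a background. Carriers at or near background can change without an array showing it.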

Other observations

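The 2 arrays titled technical, of C57BL/6 at 24 h, entered no comparison above. Over the 39 carriers their mean differed from that of the 2 biological arrays of that group by a median of 0.139 on the log2 scale, with the largest difference, 0.589, for Slc25a16, and 38 of 39 within 0.5.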
